A study of Mus musculus with 6 samples.

Results

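The genes of oxidative phosphorylation were followed in 6 1-colour microarrays of mouse Lhx2 cells, 3 left untreated and 3 given transforming growth factor β1 (TGF-β1). They were taken as all probes whose RefSeq accession maps to a symbol beginning with Ndufa, Ndufb, Ndufc, Ndufs, Ndufv, Sdha, Sdhb, Sdhc, Sdhd, Uqcr or Atp5, or with Cox4, Cox5, Cox6, Cox7 or Cox8. This gave 113 of the 41174 probes on the array and 90 of the 16535 gene symbols that could be named. Of the 90, 82 are subunits or subunit forms of the complexes and 8 are assembly factors that share the prefix (Ndufaf1, Ndufaf3, Ndufaf4, Ndufaf5, Ndufaf7, Sdhaf1, Sdhaf2 and Sdhaf4). All but Cox8c were well above background on all 6 arrays and entered the tests, which left 89 genes: 36 of complex I, 4 of complex II, 7 of complex III, 17 of complex IV, 17 of complex V and the 8 assembly factors. Cox8c was well above background on 1 of 6 arrays.

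Oxidative phosphorylation makes most of the ATP of a resting aerobic cell. Complex I (NADH dehydrogenase) and complex II (succinate dehydrogenase) pass electrons to coenzyme Q, complex III (the cytochrome bc1 complex) passes them to cytochrome c, complex IV (cytochrome c oxidase) passes them to oxygen, and complex V (ATP synthase) uses the proton gradient built on the way. Most subunits are encoded in the nucleus and are the subject here, while a core set is encoded in mitochondrial DNA and is not taken by the rule. Blood stem and progenitor cells are known for a low reliance on respiration when quiescent and a higher one when they proliferate or differentiate.

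Lhx2 cells are blood progenitor-like mouse cells made by expressing the LIM-homeobox gene Lhx2, so all arrays come from 1 line that carries this gene. Both groups were grown with stem cell factor and interleukin 6 and kept without serum overnight. The treated group then spent 2 h with 10 ng/ml TGF-β1, and the control group, also labelled 2 h, received none. The RNA came from 3 independent harvests that the labels number in both groups, and a treated and an untreated array with the same number are called a pair. Nothing in the labels says that the harvests were separate derivations of the line. Without a block, p-values therefore measure the spread between arrays of this 1 line, into which both harvest and slide enter. With the replicate number as a block they measure the spread of the pair differences. Levels are log2 of the background-corrected spot intensity minus the 75th percentile of the array, which ranged from 794.24 to 1030.8. The share of probes well above background ranged from 82.9% to 90.3%. All 8 progenitor markers (Kit, Cd34, Ptprc, Gata2, Meis1, Lmo2, Myb and Spn) were well above background on all 6 arrays. So were all 8 granulocyte and macrophage, 4 megakaryocyte, 5 mast cell and basophil and 8 stromal markers. The same held for 5 of 6 erythroid and 4 of 5 lymphoid markers, so this mark does not tell the cell types apart. As a check of the treatment, Smad7, an inhibitory SMAD and known target, had log2 levels of -3.27, -3.06 and -3.29 in untreated and 0.28, 0.56 and 0.21 in treated cells (log2 change 3.56, adjusted p = 0.00112 by limma).

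Some promoters of the subunit genes carry recurring motifs. The motifs are shown first because regulators that bind several of them were also measured. RefSeq promoter windows (build GRCm38.p6, from 250 bases before the start site to 50 after it) were at hand for 75 of the 89 tested genes, and the 67 subunit genes among them had 72 windows. Motifs were searched on both strands, and the NRF1 and ETS matches did not overlap each other in the windows printed here. The NRF1 core GCATGCGC, bound by nuclear respiratory factor 1, was present in 12.5% of the subunit windows and in 3.52% of the 21263 windows of protein-coding genes. The ETS motif CCGGAAG, bound by GABP and other ETS factors, was in 23.6% against 11.6%, the YY1 core AAGATGG in 15.3% against 6.24%, and the motif of oestrogen-related receptors AAGGTCA in 11.1% against 4.08%. The SMAD pair GTCTAGAC was in 0 of the 72 subunit windows and in 0.23% of all windows. The TATA box TATAAA was at 12.5% against 12.6% and the E-box CACGTG at 9.72% against 7.84%. At least 1 of the NRF1, ETS and YY1 motifs stood in 31 of the 72 windows (43.1%, against 19.5% of all windows). The shares differed between complexes. In the 34 windows of complex I the NRF1 core was in 5.88% and the ETS motif in 11.8%, near the share of all windows. There the YY1 core was in 20.6% and the motif of oestrogen-related receptors in 8.82%. Both the NRF1 core and the ETS motif stood in 5 subunit windows (6.94%, against 0.71%), those of Sdhb, Uqcr11, Cox6a1, Atp5k and Atp5l, which together touch complexes II, III, IV and V. A match is a run of letters, and binding was not measured.

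These 5 windows are printed 5′ to 3′ on the strand of the gene, with NRF1 and ETS matches on either strand in capitals. They are Sdhb (chr4:140961021-140961320, plus strand), Uqcr11 (chr10:80406772-80407071, minus strand), Cox6a1 (chr5:115348909-115349208, minus strand), Atp5k (chr5:108434350-108434649, minus strand) and Atp5l (chr9:44920693-44920992, minus strand). Where the capitals read GCGCATGCGC, a match on each strand overlaps the other.
Sdhb: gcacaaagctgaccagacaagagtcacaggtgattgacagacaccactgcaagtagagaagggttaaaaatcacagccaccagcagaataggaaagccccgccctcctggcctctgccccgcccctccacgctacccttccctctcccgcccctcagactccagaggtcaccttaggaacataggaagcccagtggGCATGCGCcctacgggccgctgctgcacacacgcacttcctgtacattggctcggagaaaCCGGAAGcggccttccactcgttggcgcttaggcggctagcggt
Uqcr11: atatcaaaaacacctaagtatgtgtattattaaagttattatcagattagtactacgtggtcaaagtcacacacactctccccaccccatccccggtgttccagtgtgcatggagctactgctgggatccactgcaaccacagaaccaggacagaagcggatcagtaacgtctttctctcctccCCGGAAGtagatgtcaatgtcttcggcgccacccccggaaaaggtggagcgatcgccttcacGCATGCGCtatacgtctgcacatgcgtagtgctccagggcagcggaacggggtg
Cox6a1: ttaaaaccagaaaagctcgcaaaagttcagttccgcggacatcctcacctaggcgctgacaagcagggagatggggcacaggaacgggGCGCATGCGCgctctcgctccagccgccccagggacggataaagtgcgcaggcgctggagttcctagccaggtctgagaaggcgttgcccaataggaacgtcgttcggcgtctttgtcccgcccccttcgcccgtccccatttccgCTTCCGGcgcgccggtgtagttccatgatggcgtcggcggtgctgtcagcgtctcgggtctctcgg
Atp5k: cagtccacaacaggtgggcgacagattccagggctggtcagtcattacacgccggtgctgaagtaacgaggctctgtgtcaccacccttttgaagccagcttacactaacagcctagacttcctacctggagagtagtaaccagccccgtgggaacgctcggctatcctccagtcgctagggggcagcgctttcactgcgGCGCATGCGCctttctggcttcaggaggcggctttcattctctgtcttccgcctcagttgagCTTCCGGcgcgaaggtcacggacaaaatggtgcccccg
Atp5l: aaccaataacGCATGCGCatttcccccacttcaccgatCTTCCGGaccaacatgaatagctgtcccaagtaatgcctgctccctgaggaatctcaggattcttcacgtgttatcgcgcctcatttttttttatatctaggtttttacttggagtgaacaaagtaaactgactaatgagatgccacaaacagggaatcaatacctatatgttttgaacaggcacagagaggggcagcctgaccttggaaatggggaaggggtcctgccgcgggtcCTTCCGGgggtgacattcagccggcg
The NRF1 match began 54 bases before the start site in Sdhb, 4 bases before it in Uqcr11 and 240 bases before it in Atp5l. The ETS match began 66 bases before the start in Uqcr11 and 16 bases before it in Cox6a1. In Sdhb it began at base 7 of the transcript.

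After 2 h of TGF-β1, none of the subunit transcripts of any complex had passed the test in either direction. By limma with Benjamini-Hochberg adjustment over all 29192 genes and transcripts, 0 of the 89 members were called at an adjusted p under 0.05, where 0.253% of all those tested were (0.226% higher and 0.0274% lower after TGF-β1). With the replicate number as a block 0 of 89 were called as well, where 0.665% of all were. At an unadjusted p under 0.05 there was 1 member of 89 without the block (Ndufaf4, an assembly factor), against 5.77% of all tested, and 2 with it (Ndufaf4 and Ndufaf7), against 10.9%. None of the 81 tested subunits was at that level in either fit. In RNA from whole cultures, a change in the share of cells and a change in RNA per cell cannot be told apart. With limma's array weights 1 member, Ndufaf4, was called.

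The sizes were small. All 81 tested subunits had a log2 change within 0.2 of zero, a ratio of 1.15, as 68.8% of all tested genes did, and the highest was 0.14 (Cox6b1). Over the related lists given further on, that share ran from 69.2% (regulators) to 100% (inner membrane carriers). The subunits were not compared in this with genes of like brightness. The 95% confidence interval of every subunit lay within a log2 change of 1 in either direction, and for 63 of the 81 it lay within a ratio of 1.5 (72 with the replicate block). The median width of the interval to each side was 0.39 for the subunits and 0.46 over all tested. For a gene of median width, changes below it were not detectable with 3 arrays per group. The intervals are not adjusted for the number of genes tested, so a call at the adjusted threshold needed a larger change.

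The direction of the whole group was not stable. The median change of the 81 subunits was -0.04, with 58 of 81 below zero, beside -0.01 and 51.4% over all tested genes. The brightest of 10 equal bins of the tested genes by mean level held 67 subunits. There the median was -0.049 over all genes and -0.045 for those subunits. The median of the 81 subunits was positive with slide as a block (0.03) and in pairs 1 and 2 alone (0.08). With normexp background correction it was 0.04, where the median of all tested genes moved to -0.15. It was also positive without untreated array 3 (0.04), at 0.00 without treated array 3, and -0.12 without untreated array 2 or treated array 1. By complex the median was -0.05 for complex I (29 of 36 below zero), -0.04 for complex II (4 of 4), -0.12 for complex III (6 of 7), 0.04 for complex IV (7 of 17), -0.03 for complex V (12 of 17) and -0.13 for the assembly factors (8 of 8). Ndufa4 is counted by its symbol with complex I, although it is now assigned to complex IV, and moving it changed the medians to -0.05 and 0.03.

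**Figure D1:**
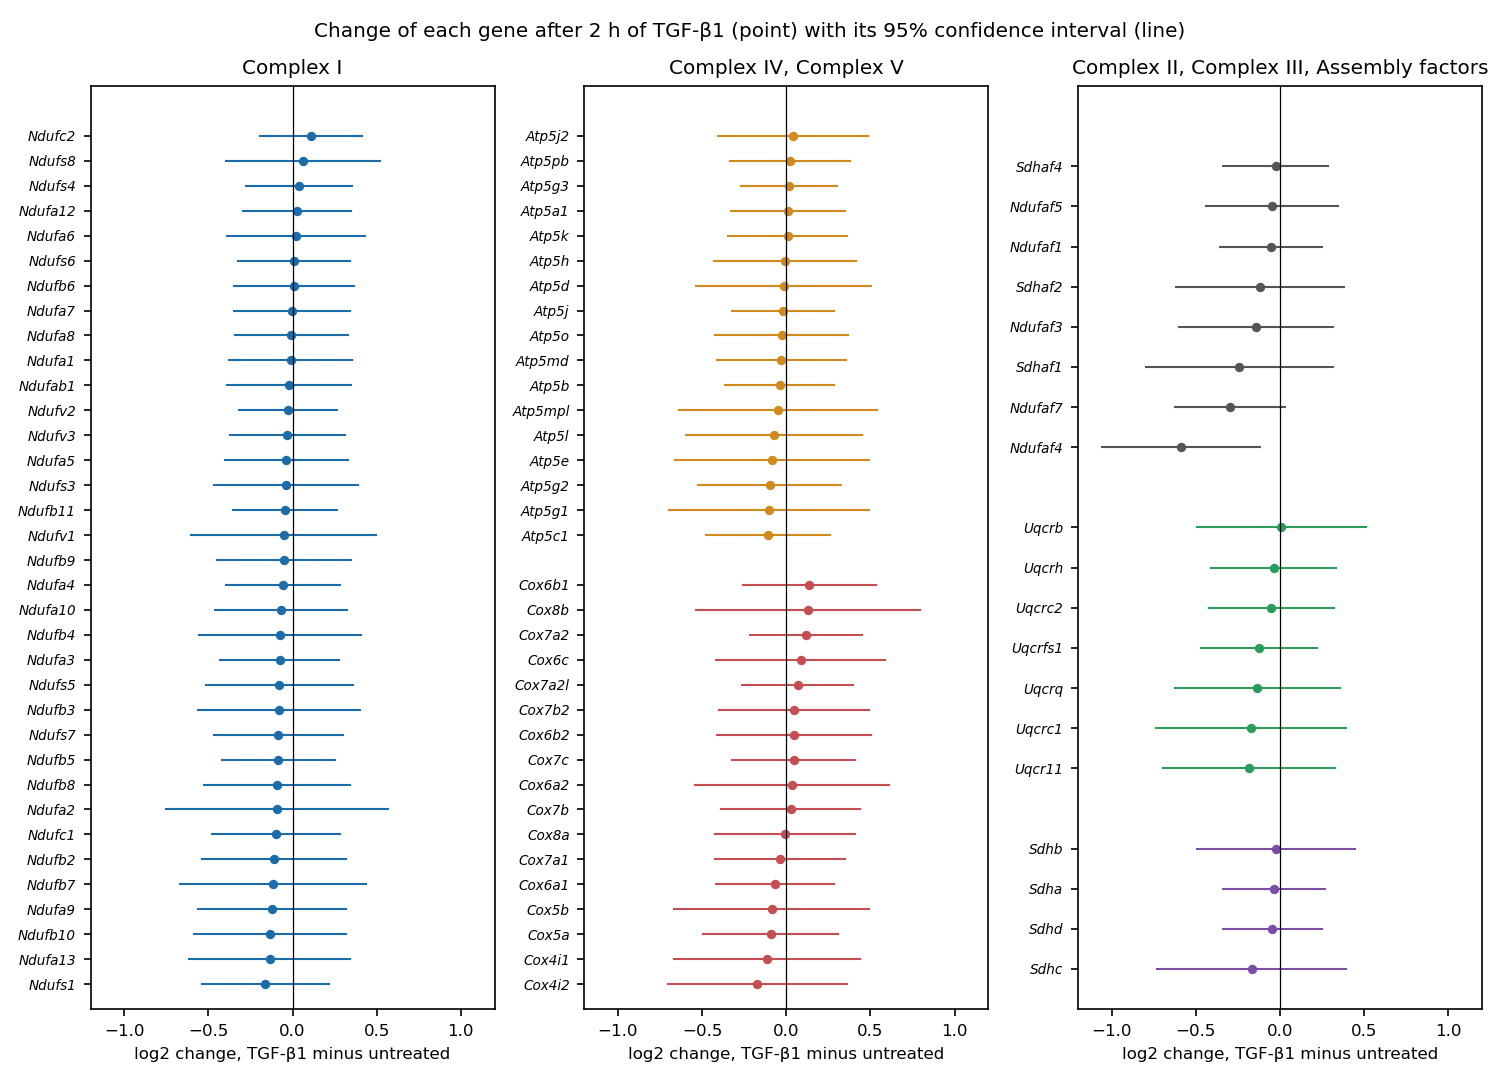
Log2 change of 88 of the 89 tested genes (TGF-β1 minus untreated, horizontal axis), sorted within complexes I to V and the assembly factors. Points are means of 3 arrays against 3 and lines are 95% confidence intervals; the 80 subunits plotted lie between -0.18 and 0.14, and Ndufaf4 stands lowest at -0.59.

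Complex I takes electrons from NADH through a flavin and a chain of iron-sulphur clusters. Ndufs1, the largest iron-sulphur subunit, had 4.14, 3.87 and 4.05 in untreated and 4.07, 3.68 and 3.81 in treated cells. It was lower in all 3 pairs, with overlapping groups (-0.16, SE 0.16). Ndufv1, the flavin-binding subunit that receives electrons from NADH, had 4.53, 4.05 and 4.55 in untreated and 4.70, 4.22 and 4.05 in treated cells. Here the treated array was higher in pairs 1 and 2 (0.17 and 0.18) and lower in pair 3 (-0.50), which averaged to -0.05 (SE 0.23). Ndufs7, the iron-sulphur subunit nearest to coenzyme Q, showed the same signs, with 0.08, 0.04 and -0.38. At the upper end, the accessory subunit Ndufc2 had 4.78, 4.72 and 4.88 in untreated and 4.87, 4.86 and 4.98 in treated cells, higher in all 3 pairs with overlapping groups (0.11, SE 0.13). Ndufs4, an accessory subunit whose loss is a known cause of complex I deficiency, differed by 0.04 (SE 0.13). The other members of complex I in the plot lay between Ndufs1 and Ndufc2, at -0.16 and 0.11.

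Complex II is the enzyme shared with the citric acid cycle. Its flavoprotein subunit Sdha had levels of 2.29, 2.30 and 2.36 in untreated and 2.18, 2.29 and 2.38 in treated cells, a change of -0.04 (SE 0.13). The groups overlapped, and the treated values bracketed the untreated ones. Sdhb, the iron-sulphur subunit whose promoter is printed above, had 3.33, 3.09 and 3.63 in untreated and 3.59, 3.21 and 3.19 in treated cells (-0.02, SE 0.20). Sdhc, a membrane anchor subunit, gave the lowest value of the complex (-0.17, SE 0.23), and this came from pair 3, at -0.75, with 0.20 and 0.05 in pairs 1 and 2. The other anchor, Sdhd, was at -0.05 (SE 0.12).

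Complex III had a median change of -0.12, which was 0.01 with the slide block. Uqcr11, a small accessory subunit with both promoter motifs, had 4.98, 4.76 and 5.28 in untreated and 5.15, 4.73 and 4.58 in treated cells (-0.18, SE 0.21). The low value came from treated array 3, and the pair differences were 0.17, -0.02 and -0.70. Uqcrc1, a core protein of the complex, had pair differences of 0.12, 0.05 and -0.69 (-0.17, SE 0.24). Uqcrfs1, the Rieske iron-sulphur protein that carries electrons within the complex, had 4.34, 4.15 and 4.41 in untreated and 4.32, 4.15 and 4.07 in treated cells (-0.12, SE 0.14). All 7 members were lower in pair 3, while 6 were higher in pair 1 and 5 in pair 2. The highest of them was Uqcrb, which helps to bind coenzyme Q (0.01, SE 0.21).

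Complex IV had a median change of 0.04, which was 0.01 with the slide block. Cox6b1, a subunit facing the intermembrane space, had levels of 1.098, 0.85 and 1.24 in untreated and 1.35, 1.02 and 1.23 in treated cells (0.14, SE 0.16), with pair differences of 0.26, 0.16 and -0.01. The groups overlapped. Cox7a2, the widely expressed form of subunit 7a, was at 0.12 (SE 0.14). Cox4i1, the common form of the regulatory subunit 4, had 6.48, 6.07 and 6.71 in untreated and 6.64, 6.21 and 6.06 in treated cells (-0.11, SE 0.23). The treated arrays of pairs 1 and 2 were above their partners by 0.16 and 0.15, and that of pair 3 was below by -0.64. Cox7a2l, which takes part in joining complexes into supercomplexes and is counted here by its symbol, was at 0.07 (SE 0.14). Cox5a, which contacts subunit 4, was at -0.09 (SE 0.17).

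Complex V is a rotary enzyme driven by proton flow, with the catalytic sites between the α subunit (Atp5a1) and the β subunit (Atp5b). Atp5b had levels of 6.85, 6.69 and 6.87 in untreated and 6.88, 6.75 and 6.67 in treated cells (-0.04, SE 0.13). Atp5a1 had 6.31, 6.53 and 6.28 in untreated and 6.35, 6.51 and 6.29 in treated cells (0.01, SE 0.14). The groups overlapped in both genes, and the differences were within the spread of each group. The 3 genes of the membrane ring subunit c behaved unequally between arrays: Atp5g3 stayed between 6.51 and 6.58 on all 6, while Atp5g1 ranged from 3.78 to 4.48. Their treatment changes were 0.02 (SE 0.12) and -0.10 (SE 0.25). The lowest value of the complex was that of the central stalk subunit Atp5c1 (-0.11, SE 0.15) and the highest that of Atp5j2, a membrane sector subunit (0.04, SE 0.19).

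The assembly factors held the members that stood furthest from zero. Ndufaf4, which helps to build complex I, had levels of 2.59, 2.18 and 2.30 in untreated and 2.01, 1.46 and 1.84 in treated cells. All treated arrays lay below all untreated ones, as they did for 5.05% of all tested genes (10.4% did not overlap in either direction), with means of 2.36 ± 0.21 and 1.77 ± 0.28 (SD, n = 3), and the change was -0.59 (SE 0.20, 95% interval -1.06 to -0.12), or 1.5-fold lower. It did not pass the adjustment over all genes (adjusted p = 0.627 by limma, 0.147 with the replicate block) and, among the settings tried, was called only with array weights, which count treated array 2 most (-0.92, adjusted p = 0.042 by limma). Leaving out 1 array at a time gave changes between -0.71 and -0.43, and the values within slide 1 and within slide 2 were -0.44 and -0.53.

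Ndufaf4 is measured by 3 probes, each well above background on all 6 arrays. The second had -1.51, -2.28 and -1.67 in untreated and -1.74, -2.66 and -2.26 in treated cells, and the third -3.97, -3.89 and -3.94 against -4.16, -4.19 and -4.18. All 3 probes were lower in all 3 pairs, with mean changes of -0.59, -0.40 and -0.24. Probes of 1 gene share the RNA and are not replicates.

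**Figure D2:**
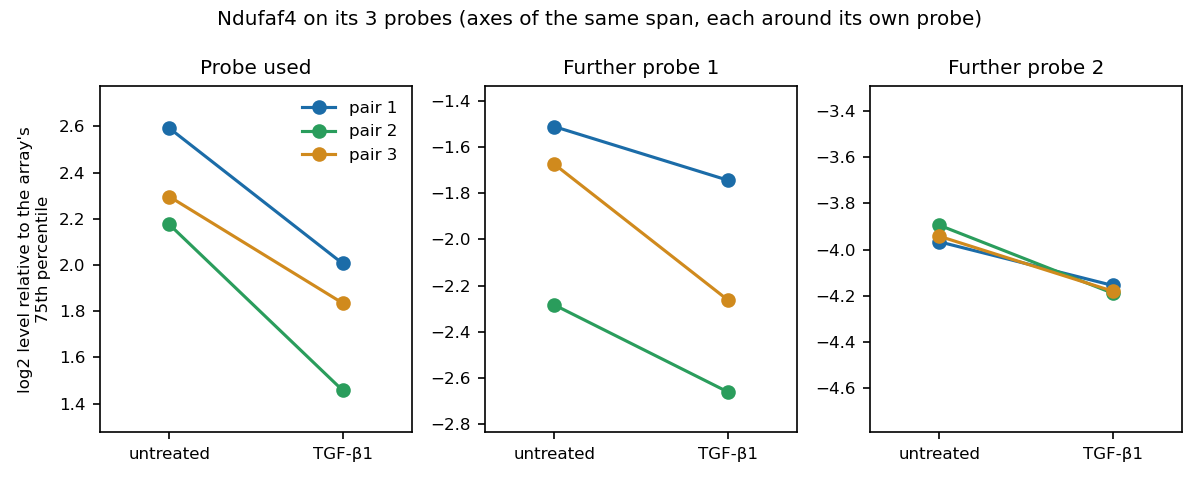
Ndufaf4 on each of its 3 probes (vertical axes: log2 level relative to the 75th percentile of the array, all of the same span), with untreated and TGF-β1-treated arrays joined by harvest pair. All 9 lines go down, with mean changes of -0.59, -0.40 and -0.24.

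The promoter window of Ndufaf4 (chr4:24897833-24898132, plus strand, GRCm38.p6, RefSeq) is printed because the gene had the lowest change of the set. Its capitals mark matches to the NRF1 core on either strand, which begin 113 and 111 bases before the start site and at base 2 of the transcript. It held no ETS match in these letters.
Ndufaf4: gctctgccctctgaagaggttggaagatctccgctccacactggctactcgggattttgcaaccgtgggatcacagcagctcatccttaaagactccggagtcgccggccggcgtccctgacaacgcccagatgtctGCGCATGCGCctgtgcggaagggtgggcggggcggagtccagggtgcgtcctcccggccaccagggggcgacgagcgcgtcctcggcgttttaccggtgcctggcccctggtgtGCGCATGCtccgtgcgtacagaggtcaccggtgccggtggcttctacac

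Ndufaf7, a methyltransferase that acts in complex I assembly, also had groups that did not overlap. Its levels were -0.72, -0.47 and -0.70 in untreated and -0.98, -0.84 and -0.97 in treated cells, a change of -0.30 (SE 0.14, adjusted p = 0.945 by limma, 0.403 with the block). Sdhaf1, which helps to insert iron-sulphur clusters into Sdhb, was lower in all 3 pairs (-0.19, -0.14 and -0.39) with overlapping groups (-0.24, SE 0.23). Ndufaf3 was lower in all 3 pairs as well (-0.14, SE 0.19). Of the 8 assembly factors in the rule 4 were lower in all 3 pairs, where 20% of all tested genes were. In 2 of the 8 all treated arrays lay below all untreated ones, where they did for 5.05% of all tested genes. Among the 25 assembly factors outside the naming rule, such as Cox10, Surf1 and Atpaf1, 0 were called, 20 were below zero and the median was -0.11. Of all tested genes 51.4% were below zero. The lowest was the copper chaperone Sco1 (-0.42, SE 0.14, adjusted p = 0.616 by limma), with pair differences of -0.44, -0.34 and -0.48.

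The 3 pairs did not move the subunits the same way. In pair 1 the treated array had a median subunit difference of 0.12 (67 of 81 above zero) and in pair 2 of 0.06 (63 of 81 above zero), where the medians of all tested genes were -0.07 and -0.07. In pair 3 the median was -0.31 with 69 of 81 below zero, where that of all tested genes was 0.11. The pair 3 median of all tested genes varied with brightness. In the brightest of 10 equal bins, which held 67 subunits, it was -0.18 over all genes and -0.33 for those subunits. Only 3 subunits were lower in all 3 pairs (among them Ndufs1 and Uqcrfs1), where 20% of all tested genes were, and 4 were higher in all 3 (Ndufc2, Ndufs4, Cox7c and Atp5g3), where 14.1% were.

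**Figure D3:**
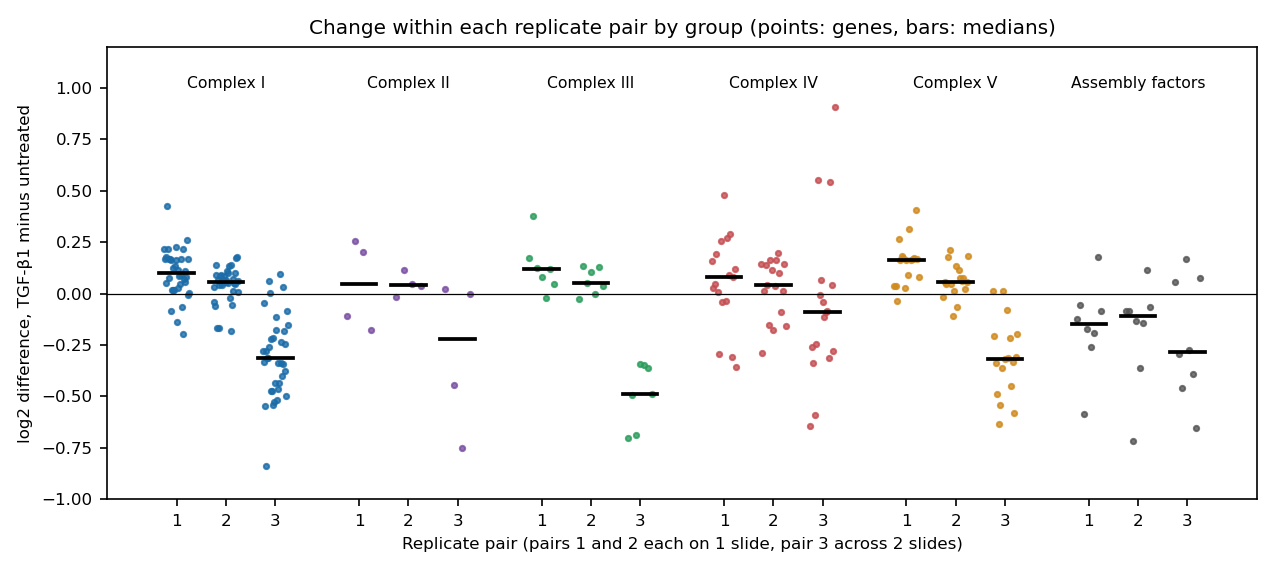
Difference of each gene within each replicate pair (vertical axis, log2, TGF-β1 minus untreated) by complex, with bars at the medians. Pairs 1 and 2 sit slightly above zero for the complexes and pair 3 below it, with a subunit median of -0.31 in pair 3.

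The arrays were on 2 slides, and pair 3 was the pair that spanned them. Slide 1 held untreated arrays 1 and 3 and treated array 1, and slide 2 held untreated array 2 and treated arrays 2 and 3. A fit with slide beside treatment, chosen after these data were seen, gave a median subunit difference of -0.27 for slide 2 minus slide 1, with 65 of 81 below zero, where the median of all tested genes was 0.10. On slide 2 all 3 arrays were below all 3 arrays of slide 1 for 49 subunits (13.7% of all tested genes) and above them for 5 (26.9%). At an adjusted p under 0.05 by limma 12 members were called, 11 of them lower on slide 2, where 13.8% of all tested genes were called, 1.79% lower on slide 2 and 12% higher. With 1 array left out no member was called, except 5 without treated array 3. Harvest is spread unevenly over the slides, since harvest 1 lies on slide 1 and harvest 2 on slide 2, so slide and harvest cannot be told apart for those pairs. The slide fit has no replicate block and counts same-numbered arrays as independent, although they deviated together. Its standard errors and p-values therefore do not measure the spread between harvests.

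Atp5g1, which encodes a form of ring subunit c, had 4.27, 4.48 and 4.45 on slide 1 and 3.78, 3.83 and 3.94 on slide 2 (-0.58, SE 0.11, adjusted p = 0.0346 by limma). The slides did not overlap, and untreated and treated arrays lay together on each. Cox5b, a zinc-binding subunit of complex IV, had 5.73, 5.96 and 5.92 on slide 1 and 5.27, 5.40 and 5.37 on slide 2 (-0.56, SE 0.11, adjusted p = 0.0367 by limma). Uqcrc1 and Ndufv1, also called, had -0.54 and -0.53. The 1 member called higher on slide 2 was Cox6a2, the muscle form of subunit 6a, with -2.24, -2.30 and -2.53 on slide 1 and -1.85, -2.00 and -1.74 on slide 2 (0.54, SE 0.12, adjusted p = 0.0487 by limma).

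**Figure D4:**
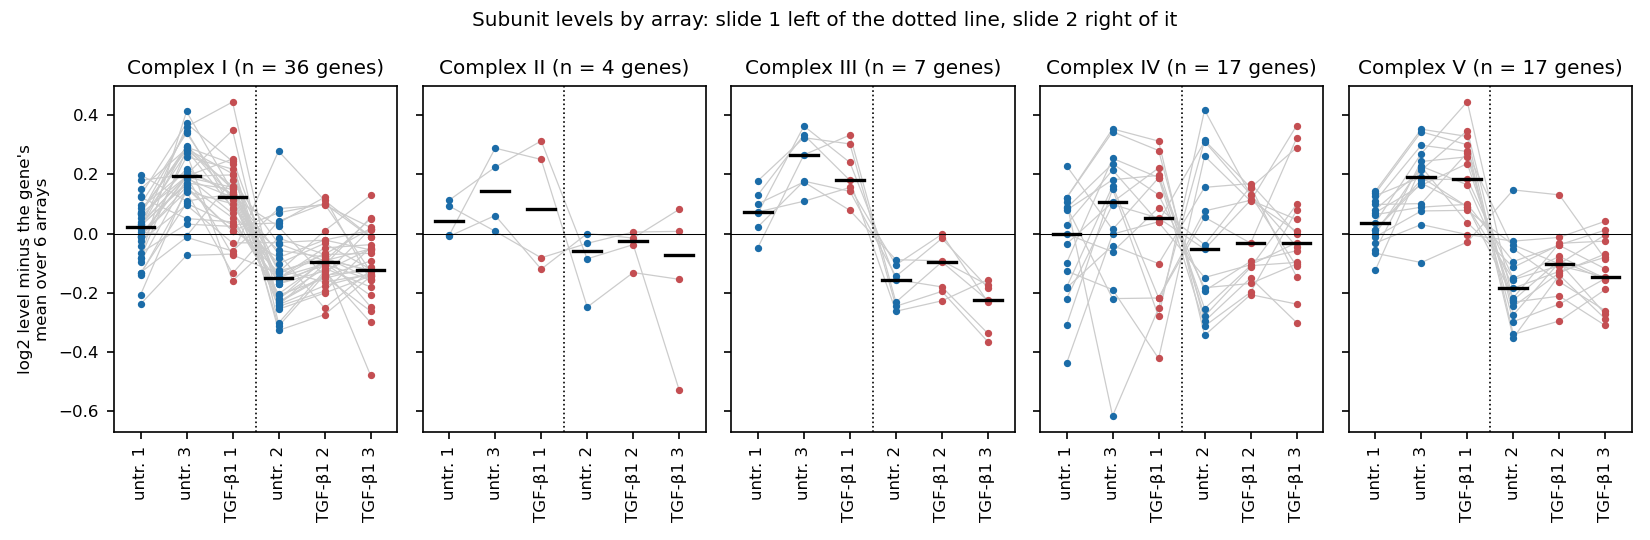
Levels of the tested subunits of each complex on each array (vertical axis, log2 level minus the gene's mean over 6 arrays), with untreated arrays in blue, treated arrays in red and bars at the medians. In complexes I, III and V the 3 arrays of slide 2 lie mostly below those of slide 1, whichever group they belong to.

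The complexes differed in how far they followed the slide. The median difference was -0.25 for complex I, -0.19 for complex II, -0.42 for complex III (7 of 7 lower and not overlapping) and -0.28 for complex V (16 of 17 lower), but -0.04 for complex IV. Within complex IV the 11 widely expressed subunits had -0.27 and the 6 tissue-restricted forms had 0.32. The slide difference also moved with the brightness of the probes: over all tested genes its median went from 0.41 in the dimmest of 10 equal bins to -0.19 in the brightest, and 67 of the 81 subunits were in the brightest, with a median of -0.27. The slides differed in the 75th percentile of the signal itself, at 794.24 to 901.17 on slide 1 and 1001.6 to 1030.8 on slide 2.

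**Figure D5:**
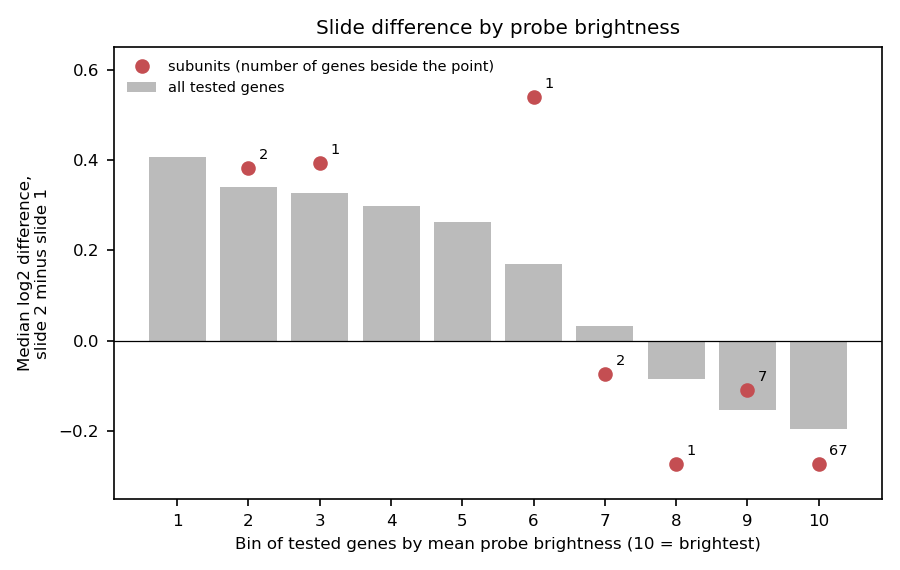
Median log2 difference between slides (slide 2 minus slide 1, vertical axis) in 10 equal bins of the 29192 tested genes by mean probe brightness, for all genes (bars) and for the subunits (points, with their number). The bars go from 0.41 to -0.19 and 67 subunits stand in the brightest bin.

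The slide difference depended on how the arrays were brought to 1 scale. It was -0.08 with quantile normalization, -0.06 with cyclic loess and -0.06 in the authors' own log2 values, with 0, 0 and 1 members called, and -0.52 with the median in place of the 75th percentile, with 47 called. Both arrays of pair 3 came from harvest 3, the untreated one on slide 1 and the treated one on slide 2. Treatment and slide therefore cannot be told apart within this pair, and the part of brightness in its differences was not tested. Within each slide, from 3 arrays each, the treated minus untreated median of the subunits was 0.04 on slide 1 and 0.04 on slide 2. Each slide holds 1 array of pair 3, so these values still include that pair.

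Differences among the 3 harvests, whatever the treatment, were tested with limma's F-test in the model with treatment and replicate number. None of the 89 members was called, where 3.1% of all tested genes were, and 4 members were at an unadjusted p under 0.05 (Sdhaf1, Cox4i2, Cox6b2 and Ndufaf4), where 21.5% were. Sdhaf1 had harvest means of 1.92, 1.30 and 1.61 (adjusted p = 0.175 by limma). Sdhd, at 4.86, 4.84 and 4.86, and Atp5g3, at 6.52, 6.52 and 6.58, were among the 3 members with the smallest F. The count depended on the values used: 1 member was called in the authors' log2 values, 6 with normexp and 17 when pairs 1 and 2 alone were compared. In pairs 1 and 2 harvest and slide coincide, so the 17 calls cannot be told apart from a slide difference. Harvest 3 lay on both slides, so a slide difference adds to the spread that the test on all 3 harvests is set against. Of 8 stromal markers 5 were called by the same test, with log2 summed levels of 4.45, 6.05 and 0.87 in untreated and 4.66, 6.00 and 1.09 in treated cells, and all 8 markers were well above background on all 6 arrays; their part in the harvest differences of the members was not tested.

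Several subunits of complex IV exist in a widely expressed form and in forms restricted to certain tissues. The widely expressed forms Cox4i1, Cox6a1, Cox6b1, Cox7a2, Cox7b and Cox8a were well above background on all 6 arrays. So were Cox4i2, known from lung, Cox6a2, Cox7a1 and Cox8b, known from heart and skeletal muscle, and Cox6b2 and Cox7b2, known from testis. The probes of Cox7b2 and Cox8b came within 0.84 (log2) of the lowest signal that counts as well above background on their dimmest array, whereas Cox7a1 was at least 6.10 above that mark on every array. Levels are not compared between probes, and cross-hybridisation was not tested. After TGF-β1 the 6 restricted forms lay between -0.17 (Cox4i2, SE 0.22) and 0.13 (Cox8b, SE 0.28). Cox8b had -4.92, -4.71 and -5.64 in untreated and -5.28, -4.87 and -4.74 in treated cells, so that its value came from pair 3 (0.91) against -0.36 and -0.16 in the others. Of 5 striated muscle markers (Ckm, Myh7, Tnnt2, Actc1 and Myl2), 4 were well above background on all 6 arrays, with log2 summed levels from -0.62 to 0.52 in untreated and from -0.39 to 0.82 in treated cells. That sum was -0.62, -0.26 and -0.39 on slide 1 and 0.52, 0.64 and 0.82 on slide 2. Most of it was Actc1, at -1.06, -0.66 and -0.78 on slide 1 and 0.23, 0.38 and 0.64 on slide 2. Of the 5 markers 1, Tnnt2, was lower on slide 2 (-0.07). Cox6a2 was also higher on slide 2, where the median of all genes in its brightness bin was higher by 0.17. The part of the marker sum in the muscle forms was not tested.

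More than 1 passing probe was at hand for 17 member genes, 40 probes in all. For 16 of the 17 the probes of a gene differed by less than 0.2 in their treatment change, with a median gap of 0.08, and in 0 genes did they disagree in sign by over 0.2. The widest gap was that of Ndufaf4 (0.35). Atp5a1 had 0.01 on the probe used and -0.12 on the other, and the 3 probes of Atp5b gave values between -0.11 and -0.02. This agreement is that of the mean change, and it did not hold for every gene in pair 3 or between slides. The probes of Atp5a1 had 0.01 and -0.49 in pair 3, and 0.13 and -0.42 for the mean of slide 2 minus that of slide 1. Those of Atp5g2 stayed close, at -0.36 and -0.40 in pair 3 and -0.32 and -0.36 between slides. Slide and pair 3 values of a gene can thus depend on the probe used.

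Regulators of mitochondrial genes, among them factors that bind the promoter motifs, were measured too. Of 13 regulators tested 0 were called, 11 were below zero and the median change was -0.14. Over all tested genes 51.4% were below zero and the median was -0.01. Nrf1, which encodes nuclear respiratory factor 1, had -0.28, -0.41 and -0.35 in untreated and -0.45, -0.60 and -0.49 in treated cells, a change of -0.17 (SE 0.13). Every treated array lay below every untreated one, as for 5.05% of all tested genes, but the difference did not pass the test (adjusted p = 1 by limma). Tfam, which packages mitochondrial DNA and acts in its transcription, was at -0.14 and Gabpa at -0.07. Esrra was at -0.15 and Yy1, which binds the YY1 motif, at 0.01. The coactivator Ppargc1b had the highest value (0.22) and Ppargc1a the lowest (-0.24).

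None of the genes of neighbouring mitochondrial and glycolytic pathways on the lists was called. Cytochrome c and coenzyme Q synthesis had 0 of 13 called and a median of -0.06, with Cycs, the electron carrier between complexes III and IV, at -0.19 and Cyc1, a complex III subunit outside the naming rule, at -0.02. Pyruvate dehydrogenase and the citric acid cycle had 0 of 16 called and a median of -0.10, the lowest being Idh3a at -0.27. The inner membrane carriers had 0 of 12 called and -0.04, the mitochondrial antioxidant genes 0 of 7 and -0.07. Glycolysis had 0 of 20 called and -0.06, and its lowest member was hexokinase 2 (Hk2), the first enzyme of the pathway, at -0.40 with levels of 3.61, 3.65 and 3.82 in untreated and 2.90, 3.31 and 3.67 in treated cells, which overlapped. These medians did not keep their sign under every alternative. Within slide 2 those of cytochrome c and coenzyme Q (0.01), the carriers (0.07) and the antioxidant genes (0.06) were positive, and that of glycolysis was 0.10 with array weights. The median of pyruvate dehydrogenase and the citric acid cycle was negative in each alternative run, at most -0.01.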

How the data were processed

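Per the file headers, the authors' scanner files came from Agilent Feature Extraction 10.1.1.1 on array design 014868 (build mm8) and hold a processed spot intensity with background and spatial trend removed on each array by itself, with no scaling from array to array. The authors' deposited matrix gives these arrays as log2 values; the submitters' processing notes name limma, with version and steps not given in the sources used here. Here each array was set to log2 of the processed intensity minus its 75th percentile, spots of a probe were averaged without outlier spots, a probe had to be well above background on at least 3 of 6 arrays, and a gene was taken from its passing probe with the highest mean. Probes were named through RefSeq accessions (assembly GRCm38.p6), which named 23374 of 41174. Of 100 protein-coding symbols that fit the naming rule in that assembly, 10 had no probe named here, among them Ndufa11, Uqcr10 and Ndufa4l2; its 19 pseudogenes of these families may cross-hybridise, which was not tested.

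Treated and untreated arrays (3 each) were tested by lmFit and eBayes (limma 3.58.1, R 4.3.3) with p-values adjusted by Benjamini-Hochberg across all 29192 features, threshold 0.05; intervals are 95%. The members and lists were chosen with earlier results of these data known. Genes named were those past the threshold, the 3 highest and lowest of each complex, the members with the largest and smallest harvest F, the isoforms, the core catalytic subunits and the extremes of related lists; 1 tested member is left out of the named results and is not reported here, though it stays in the counts and medians; others named for their pattern over pairs, slides or probes were chosen after their values were seen. Same-numbered arrays deviated together (correlations of deviations from group means 0.636, 0.786 and 0.557, against -0.74 to 0.07 for other numbers), and the labels number the 3 independent harvests, so the number was taken to pair the arrays. The code of the tests was checked on simulated data with known changes. Alternatives were the replicate and slide blocks, values within slides, normexp (offset 50, on median signals), quantile, median and cyclic loess normalization, the authors' log2 values, probe filters, the mean of the probes, array weights and leaving out each array; cyclic loess, the slide test and the fit on pairs 1 and 2 were chosen after seeing the data. The number of arrays limits the precision.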

Additional observations from a re-analysis of the deposited data

How the results depend on the processing

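The count of members called for treatment was 0 under every alternative run, including each array left out in turn and the replicate block, except array weights (1, Ndufaf4). Over all tested genes that count was 74, and it was 194 with the replicate block, 671 with array weights, 172 in the authors' log2 values, 122 with cyclic loess, 111 with quantile normalization, 5 with normexp and 7 to 24 with 1 array left out. The replicate block leaves each change as it is, with a subunit median of -0.04, and changed no call of a member. The median of the 81 subunits lay between -0.14 (array weights) and 0.08 (pairs 1 and 2 only), and between -0.12 and 0.04 with 1 array left out. It was positive within slide 1, within slide 2 and with the slide block. The median of the 13 regulators was 0.0152 within slide 2, where that of the assembly factors outside the naming rule was 0.02. The glycolysis median was -0.18 to 0.04 with 1 array left out. The pair 3 median of the subunits was -0.0512 with normexp.

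Members called between harvests were 1 in the authors' values, 6 with normexp and 17 in pairs 1 and 2 only, where harvest and slide coincide. The slide difference of the subunits was -0.0595 in the authors' values, -0.064 with cyclic loess, -0.0816 with quantile normalization, -0.15 with normexp and -0.52 with median scaling, with 1, 0, 0, 0 and 47 members called. With 1 array left out its median was -0.28 to -0.22 and 0 to 5 members were called (5 without treated array 3, 0 without any other). The cause was not tested. Of 960 values of 48 named members over 20 settings, 928 moved by less than 1 SD of the replicates, and 185 had the other sign without being called.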
